A study of Mus musculus with 27 samples.

Results

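The interleukin-6 (IL-6) family was followed through the first weeks after volumetric muscle loss (VML), an injury in which part of a muscle is cut out and not replaced. The genes examined were those whose symbol in the deposited gene table matched Il6, Lif, Osm, Il6ra, Osmr, Lifr, Il6st, Socs3 or Stat3, which gave 9 of 54532 genes. Each symbol matched 1 gene. Bulk RNA sequencing had been performed on 27 tibialis anterior muscles of 8-week-old male C57BL/6 mice, with 5 muscles without injury and 5, 6, 6 and 5 muscles at 3, 7, 14 and 21 days after VML. No other treatment, transgene or deletion was recorded for any group. Whether the excision was made on one side, as the series record has it, or on both, as the study's methods have it, cannot be read from the labels. The labels do not say whether the muscles of a group came from separate animals, so p-values measure the spread between these samples, which may in part be technical.

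The cytokines of this family share one signalling chain. IL-6, leukemia inhibitory factor (LIF) and oncostatin M (OSM) each use a receptor of their own. These are IL-6 receptor alpha (Il6ra), the LIF receptor (Lifr) and the OSM receptor (Osmr). Each acts together with the common subunit gp130, the product of Il6st. The kinases bound to gp130 activate the transcription factor STAT3, and STAT3 induces Socs3, whose product binds gp130 and shuts the signal down. In muscle, these cytokines are known as signals from infiltrating leukocytes, fibres and stromal cells after damage, and they are known to act on satellite cells, the stem cells of muscle.

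Levels are given as FPKM, fragments counted per length of gene and per depth of sequencing, which corrects for gene length and so allows levels of different genes to be set side by side. Multiplying FPKM by gene length and dividing by a factor fitted per sample gave whole reads in all samples. The tolerance was 0.05 reads, wider for large counts, and there were 14376395 to 24436763 reads per sample. The read number to which FPKM had been scaled was on average 0.782 times the sample's own total in uninjured muscle and 1.25 times at day 3, so the deposited values already contain a correction between samples. Levels were also compared with every sample brought to the same FPKM sum (TPM) and with each sample scaled by its own read total, and calls of members and named pathway genes that change with this are given with their values. Summed markers of muscle fibres were between 22442 and 110383 FPKM in every sample, the highest of the marker sums examined. By the distance between expression profiles, 9 samples were nearest to the mean of another group, and among these day 3 replicate 5 lay nearest to day 7, and day 7 replicate 5 nearest to day 3. Both were kept under their labels, whether these are crossed was not tested, and if they were, values given for either sample at its day would belong to the other day.

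Members of the family lie close together at some places in the mouse genome (coordinates from the deposited table, matching GENCODE M21 on GRCm38). Osm (chromosome 11, 4236420 to 4241026, plus strand) and Lif (chromosome 11, 4257557 to 4272514, plus strand) were separated by 16530 bases. Osmr (chromosome 15, 6813577 to 6874969, minus strand) and Lifr (chromosome 15, 7090614 to 7197489, plus strand) were separated by 215644 bases and face away from each other. Socs3 (chromosome 11, 117966079 to 117970047) and Stat3 (chromosome 11, 100885098 to 100939540) are on the minus strand of the same chromosome as both ligands. Il6 lies on chromosome 5 (30013114 to 30019981, plus strand), Il6st on chromosome 13 (112464070 to 112510086, plus strand) and Il6ra on chromosome 3 (89864059 to 89913196, minus strand). An exon of Stat3 overlaps one of Stat5a on the other strand, and an exon of Il6ra overlaps one of Gm42809. The libraries did not keep the strand, so reads in these overlaps cannot be assigned to either gene, although Gm42809 did not exceed 0.164 FPKM in any sample.

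The 250 bases before the transcription start were read for 8 of the 9 members from RefSeq (GRCm38.p6), and Osm had no entry. The 5 motifs listed next were searched on both strands, and 3 of the 8 genes held at least 1 of them. The STAT motif TTCNNNGAA was present in 7.02% of the 32851 mouse promoters of the same length, the AP-1 motif TGANTCA in 6.75%, the C/EBP motif TTGNGCAA in 2.61%, the CRE motif TGACGTCA in 1.55% and the NF-κB motif GGANTTTCC in 1.07%. These sequences are shown because the genes concerned are the STAT3 feedback gene and a pair of cytokines of the family, with matched letters in capitals and all other letters in lower case, 5′ to 3′ on the strand of the gene.
Il6, chr5:30012864-30013113, plus strand, AP-1 at 249, C/EBP at 128 and NF-κB at 43 bases before the start: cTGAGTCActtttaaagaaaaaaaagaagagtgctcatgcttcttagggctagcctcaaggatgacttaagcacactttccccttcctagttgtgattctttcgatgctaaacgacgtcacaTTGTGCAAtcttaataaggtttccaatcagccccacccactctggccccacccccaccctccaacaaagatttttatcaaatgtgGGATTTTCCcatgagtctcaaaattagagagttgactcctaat
Lif, chr11:4257318-4257567, plus strand, AP-1 at 228 bases before the start: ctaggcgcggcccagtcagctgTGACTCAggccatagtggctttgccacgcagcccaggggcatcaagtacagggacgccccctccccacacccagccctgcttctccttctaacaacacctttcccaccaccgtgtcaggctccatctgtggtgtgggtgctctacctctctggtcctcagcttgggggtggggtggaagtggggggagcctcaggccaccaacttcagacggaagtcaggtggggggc
Socs3, chr11:117969367-117969616, minus strand, STAT at 154 bases before the start: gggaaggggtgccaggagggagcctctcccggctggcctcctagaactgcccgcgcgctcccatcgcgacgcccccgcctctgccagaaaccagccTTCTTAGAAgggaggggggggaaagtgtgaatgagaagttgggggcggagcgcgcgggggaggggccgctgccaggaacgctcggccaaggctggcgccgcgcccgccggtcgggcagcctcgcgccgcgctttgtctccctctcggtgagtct
The RefSeq starts of Socs3, Lif, Osmr and Lifr lie inside the gene spans of the deposited table. The window of Lif overlaps its span in part, and those of Socs3, Osmr and Lifr lie wholly inside theirs. The STAT match of Socs3 thus lies within the annotated gene. For Socs3 and the Lifr start 7140542, the end of the sequence read past the start was found in no GENCODE M21 transcript of the gene. Which starts are used in muscle was not tested. Lifr had windows at the starts 7129572 and 7140542, and both were searched. A match is a description of letters in the window, and the windows of Stat3, Il6st, Il6ra, Osmr and Lifr, which held no match, are not printed.

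The ligands were detected by few reads. Il6, Lif and Osm stayed under the filter for testing across all genes, which asked for 0.5 FPKM in at least 5 samples and was passed by the other 6 members. They reached 0.5 FPKM in 1, 0 and 3 of the 27 samples, respectively, and had no read in 13, 4 and 12 samples. In whole muscle, fewer cells of a type and less RNA per cell cannot be told apart.

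Osm, the ligand of Osmr, was the ligand with the clearest appearance after injury. No Osm read was found in 4 of the 5 uninjured muscles, and replicate 5 had 1 read (0.0301 FPKM). At day 3 the 5 muscles had 0.801, 0.484, 0.651, 0.444 and 0.269 FPKM, from 13 to 39 reads each. All 5 day 3 values were above the highest uninjured value, and the groups did not overlap. The difference in mean log2(FPKM + 1) was 0.59, with an exact two-sided permutation p = 0.00794, the smallest that 5 against 5 samples can give, and an adjusted p = 0.0952 over the 12 tests of the low ligands. With samples brought to a common sum or scaled by their own read totals the adjusted p was 0.0476. The exact p of Osm could not fall further, and this change came from the Lif test at day 3 reaching the same smallest p. In limma without the filter the adjusted p of Osm was 0.00472. Taken over the pooled reads, the rate at day 3 was 84.2 times that of uninjured muscle, with an exact 95% interval of 14.9 to 3351 that covers counting error only and rests on a single uninjured read.

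At day 7, Osm ranged from 0 to 1.44 FPKM with a median of 0.134, and 5 of 6 muscles were above the uninjured maximum (difference 0.36, exact permutation p = 0.0541, adjusted p = 0.162). Replicate 5 alone held 114 of the 149 reads at this time, and without it the difference was 0.17 (adjusted p = 0.143). Without replicate 6 the difference was 0.43 (adjusted p = 0.0476). That replicate was the only one at day 7 without a read, so leaving it out fixed the separation of the groups in advance. At day 14, the range was 0 to 0.111 FPKM with a median of 0.00990, and the difference from uninjured muscle was 0.05 (exact permutation p = 0.379, adjusted p = 0.593). By day 21, 4 of 5 muscles had no Osm read and the other had 2 (0.0661 FPKM), as sparse as in uninjured muscle.

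Il6, the founding cytokine of the family, was detected at low levels early and not at day 21. Uninjured muscles had 0, 0.0239, 0.140, 0 and 0 FPKM, and day 3 muscles had 0.197, 0.327, 0.187, 0.0362 and 0.116 FPKM. Of the 5 day 3 values, 3 were above the uninjured range and the other 2 lay within it (difference in mean log2(FPKM + 1) 0.18, exact permutation p = 0.0317, adjusted p = 0.127). At day 7 the lowest, median and highest values were 0, 0.0604 and 0.650 FPKM (adjusted p = 0.593), and at day 14 they were 0, 0.0637 and 0.166 FPKM (adjusted p = 0.593). Replicate 5 of day 7 gave 55 of the 69 reads of its group. None of the 5 muscles at day 21 had an Il6 read, where 3 reads over the group would have been 0.0169 FPKM. The pooled counts of 0 at day 21 and 5 without injury give a rate ratio with an exact 95% interval of 0 to 1.03, so a difference between these was not detectable at this depth.

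Lif, which signals through Lifr and gp130, was split within groups. Uninjured muscles had 0.104, 0, 0.0588, 0.0560 and 0.0785 FPKM and day 3 muscles had 0.198, 0.351, 0.192, 0.0807 and 0.0864 FPKM (difference 0.15, exact permutation p = 0.0317, adjusted p = 0.127, or 0.0476 under both other scalings). Above all uninjured values were 3 of those at day 3. At day 7, replicates 4, 5 and 6 had 0.376, 0.363 and 0.369 FPKM whereas replicates 1, 2 and 3 had 0.0514, 0.0614 and 0.0540 FPKM, so that the former lay above all uninjured muscles and the latter within their range (difference 0.18, exact permutation p = 0.132, adjusted p = 0.317). At day 14 the lowest, median and highest values were 0, 0.0524 and 0.160 FPKM and the difference was near 0 (0.0043 on the log2 scale, adjusted p = 1). Day 21 muscles had 0.0409, 0.173, 0, 0 and 0.288 FPKM, 2 of them above the uninjured range (difference 0.05, exact permutation p = 0.571, adjusted p = 0.686).

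**Figure D1:**
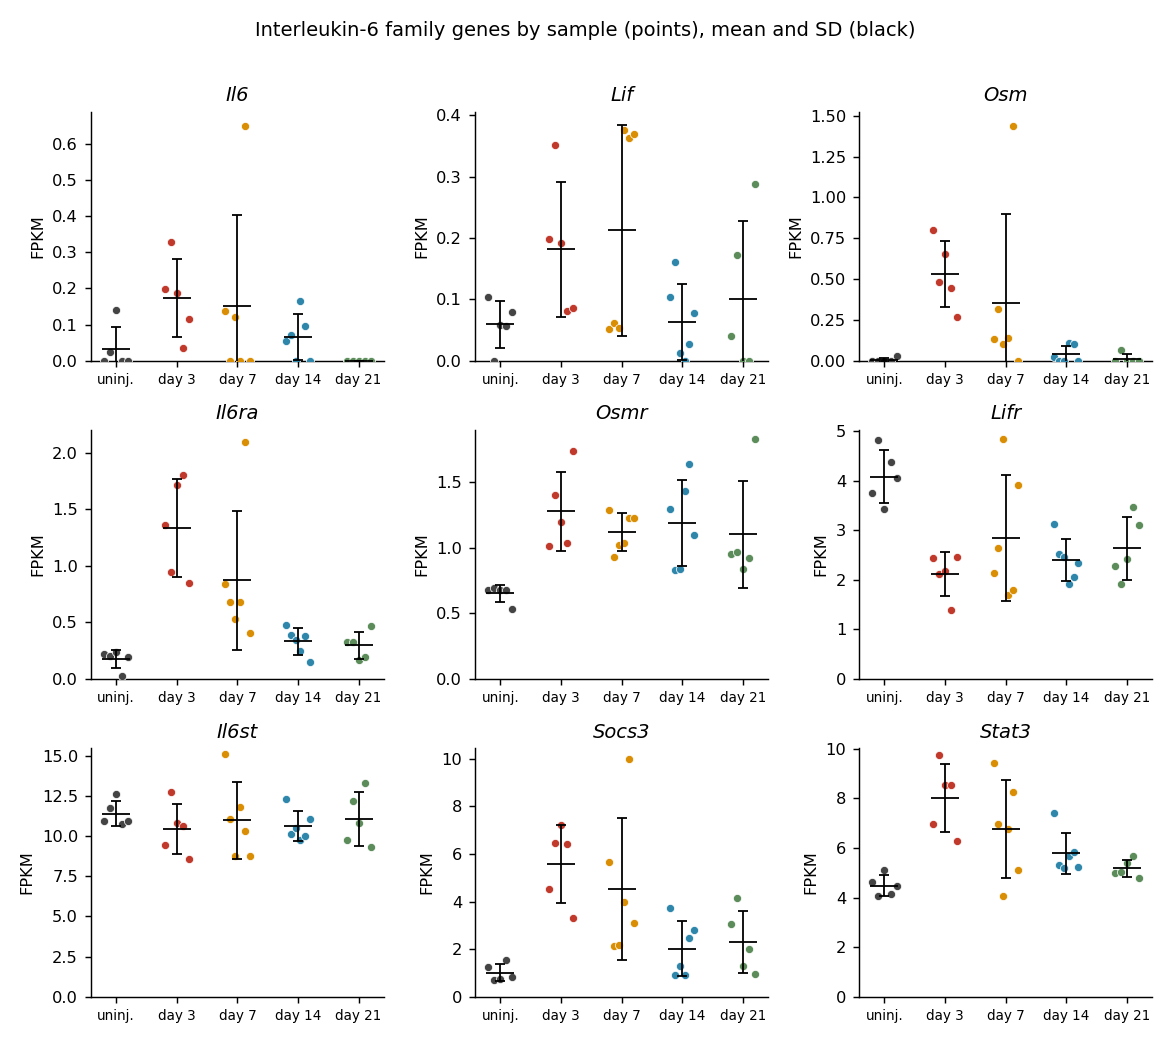
FPKM of the 9 genes in each of the 27 samples (points), with the group mean and SD in black and an axis from 0 in every panel. Ligands in the top row stay below 1.5 FPKM, Il6ra, Socs3 and Stat3 peak at day 3, Osmr lies higher and Lifr mostly lower after injury on this scale (not at day 7 under TPM), and Il6st stays between 8.56 and 15.1.

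Among the 6 members that could be fitted with limma across 14630 genes, 4 were higher and 1 lower at day 3 than in uninjured muscle. They were 4 higher and 1 lower at day 7, 1 higher and 1 lower at day 14, and none at day 21. Of all genes tested, 23.4% were higher and 19.8% lower at day 3, 15% higher and 14.4% lower at day 7, 9.02% higher and 11.3% lower at day 14, and 1.74% higher and 1.69% lower at day 21. The median log2 fold change of the 6 members was 0.58, 0.41, 0.24 and 0.16 at the 4 times, against 0.01, 0.03, 0.02 and 0.01 over all genes tested. At day 21, Lifr and Osmr had an unadjusted limma p under 0.05, and neither passed after adjustment. Weighting the recovered whole reads with voom also called no member at day 21. The 3 ligands are not in these counts, and Il6ra is in them only because it passed the filter at days 3 and 7.

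Il6ra, the binding chain for IL-6, had the lowest mean level of the 4 member receptors in uninjured muscle and rose most among them at day 3. It reached the 0.5 FPKM of the filter in 10 samples, all of them at days 3 and 7. Il6ra was thus in the fit only through the groups where it was high. Uninjured muscles had 0.217, 0.202, 0.237, 0.0282 and 0.190 FPKM, with replicate 4 low from 3 reads. At day 3 the values were 1.36, 0.948, 1.72, 1.80 and 0.848 FPKM, all above the uninjured ones. The log2 fold change on the FPKM + 1 scale, which understates the change of such a low gene, was 0.97 (standard error 0.16, adjusted p = 3.18e-05). At day 7 the lowest, median and highest values were 0.409, 0.680 and 2.10 FPKM, again without overlap, 0.62 above uninjured muscle on the log2 scale (standard error 0.15, adjusted p = 0.00362).

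At days 14 and 21 Il6ra did not pass against uninjured muscle. At day 14, values ran from 0.147 to 0.474 FPKM with a median of 0.362, and 5 of 6 muscles were above the uninjured range. The log2 fold change was 0.18 (adjusted p = 0.416), or 0.67 with a pseudocount of 0.1 (adjusted p = 0.157) and 1.12 with voom on whole reads (adjusted p = 0.240). Day 21 muscles had 0.329, 0.322, 0.166, 0.193 and 0.466 FPKM (log2 fold change 0.14, 95% interval -0.18 to 0.46, adjusted p = 0.663). Il6ra was lower at day 14 than at day 3 by a log2 fold change of -0.80 (adjusted p = 0.000732) and lower at day 21 than at day 3 by -0.84 (adjusted p = 0.000409). Between days 3 and 7 the change of -0.35 had an adjusted p = 0.248, which became 0.00390 with a change of -0.51 when day 7 replicate 5, the highest sample of its group, was left out.

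Osmr, the signalling receptor for OSM, and Lifr, the receptor for LIF, moved in opposite directions on the deposited scale, which under another scaling held for Osmr but not for Lifr at day 7. Osmr had 0.682, 0.691, 0.675, 0.677 and 0.536 FPKM in uninjured muscle. It had 1.01, 1.41, 1.20, 1.04 and 1.74 FPKM at day 3. At days 7 and 14, the lowest, median and highest values were 0.930, 1.13 and 1.29 FPKM, and 0.835, 1.20 and 1.64 FPKM. Day 21 muscles had 0.954, 0.967, 0.837, 0.923 and 1.83 FPKM. Every one of the 22 injured muscles was thus above every uninjured one.

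The log2 fold change of Osmr was 0.46 at day 3 (standard error 0.12, adjusted p = 0.00369), 0.36 at day 7 (standard error 0.12, adjusted p = 0.0220) and 0.39 at day 14 (standard error 0.12, adjusted p = 0.0184). At day 21 it was 0.33 (standard error 0.12), which did not pass (adjusted p = 0.127). The rise at day 7 lost its call when uninjured replicate 5 was left out, and that at day 14 when day 14 replicate 5 was left out, with log2 fold changes of 0.33 and 0.34. On the deposited scale no later time passed against day 3, and the difference between days 21 and 3 was -0.13 (95% interval -0.38 to 0.12, adjusted p = 0.472). It passed under both other scalings, with -0.49 under TPM (adjusted p = 0.0301) and -0.39 with each sample's own total (adjusted p = 0.0406). The median change of all genes from uninjured muscle also fell under TPM, from 0.50 at day 3 to 0.11 at day 21. Relative to that median, Osmr was at 0.36 at day 3 and 0.25 at day 21 under TPM. These values were 0.36 and 0.26 with own totals, and 0.44 and 0.32 on the deposited scale.

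Lifr had 3.75, 4.82, 3.43, 4.37 and 4.06 FPKM in uninjured muscle and 2.45, 2.12, 2.17, 1.38 and 2.47 FPKM at day 3, without overlap. At day 7, it spread from 1.70 to 4.85 FPKM with a median of 2.39, and replicates 3 and 6, with 4.85 and 3.92 FPKM, lay just above and within the uninjured range. The other 4 were below the uninjured range, as were all 6 muscles at day 14, which ran from 1.91 to 3.12 FPKM with a median of 2.39. Day 21 muscles had 2.29, 1.92, 2.41, 3.47 and 3.10 FPKM, and replicate 4 lay within the uninjured range.

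On the deposited scale, Lifr fell by 0.71 on the log2 scale at day 3 (standard error 0.17, adjusted p = 0.00191), by 0.46 at day 7 (standard error 0.17, adjusted p = 0.0403) and by 0.59 at day 14 (standard error 0.17, adjusted p = 0.0155), whereas none of these passed under either other scaling and the change at day 7 turned to 0.08 under TPM. At day 21 the log2 fold change was -0.49 (95% interval -0.85 to -0.13, adjusted p = 0.110). TPM moved the median of all genes tested from 0.01, 0.03, 0.02 and 0.01 at the 4 times to 0.50, 0.47, 0.28 and 0.11, and 95.7% of the genes called at day 3 were then higher, against 54.1% on the deposited scale. Relative to the median of all genes, Lifr under TPM was at -0.61, -0.39, -0.49 and -0.44 at days 3, 7, 14 and 21, and on the deposited scale at -0.72, -0.49, -0.61 and -0.51. The call at day 7 was also lost without any 1 of 8 samples, with fold changes between -0.59 and -0.37 over all samples left out in turn.

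The ratio of Osmr to Lifr within a sample does not depend on how samples are scaled to each other. It was 0.182, 0.143, 0.197, 0.155 and 0.132 in uninjured muscle, and 0.413, 0.665, 0.553, 0.748 and 0.706 at day 3. At day 7 its log2 value ran from -2.25 in replicate 3 to -0.55 in replicate 5, at day 14 from -1.59 to -0.32 and at day 21 from -1.91 to -0.76, where the highest uninjured value was -2.35. All 22 injured muscles had a higher ratio than all 5 uninjured ones. As a geometric mean, the ratio was 3.77-fold higher at day 3 than in uninjured muscle, and 2.65-fold, 3.05-fold and 2.56-fold higher at days 7, 14 and 21 (exact two-sided permutation p = 0.00794, 0.00433, 0.00216 and 0.00794, and adjusted p = 0.0106, 0.0106, 0.00866 and 0.0106 over 8 ratio tests). At day 21, neither Osmr nor Lifr passed the test across all genes, whereas this ratio had not come down to any uninjured value. Lifr nevertheless remained the more abundant receptor of the pair in all 27 samples, by 6.46-fold at the median in uninjured muscle, by 1.5-fold at day 3 and by 2.40-fold at day 21.

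**Figure D2:**
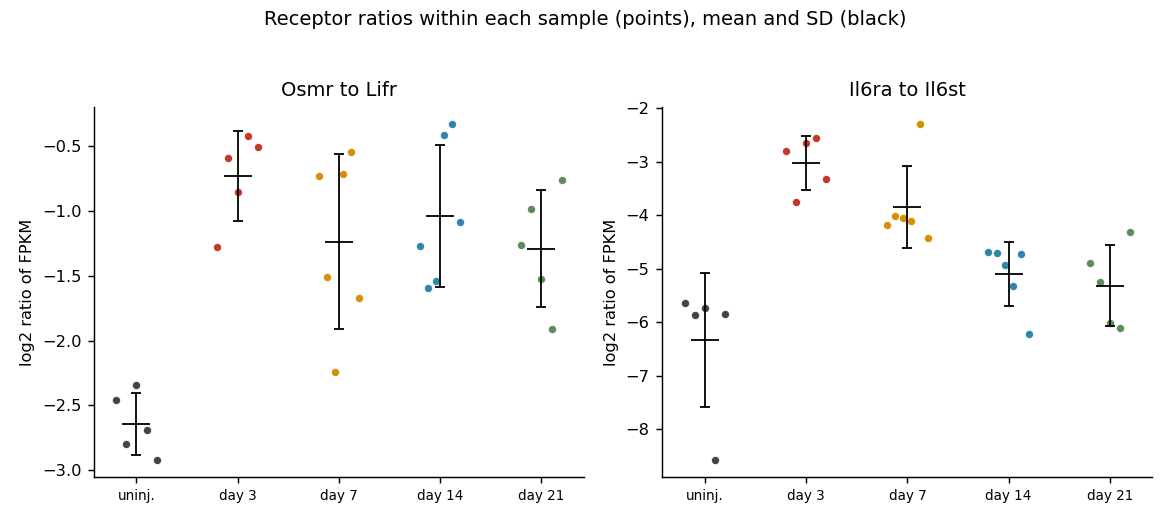
Log2 ratio of Osmr to Lifr (left) and of Il6ra to Il6st (right) in each sample (points), with group mean and SD in black. The Osmr to Lifr ratio lies above every uninjured sample in all 22 injured samples, and the mean Il6ra to Il6st ratio is highest at day 3, with day 7 replicate 5 highest of all at -2.30 and uninjured replicate 4 lowest at -8.58.

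Il6st, which encodes the common subunit gp130, had the highest level of the 4 member receptors in every sample. Uninjured muscles had 10.9, 11.7, 12.6, 10.8 and 10.9 FPKM, day 3 muscles 9.46, 12.8, 10.8, 10.6 and 8.56 FPKM, and day 21 muscles 9.75, 12.2, 10.8, 13.3 and 9.33 FPKM. At day 7 it ranged from 8.78 to 15.1 FPKM with a median of 10.7, and at day 14 from 9.79 to 12.3 FPKM with a median of 10.3. All 4 injured groups overlapped the uninjured group. The log2 fold change was -0.12 at day 3 (95% interval -0.39 to 0.14, adjusted p = 0.465), -0.07 at day 7 (-0.32 to 0.18, adjusted p = 0.702), -0.09 at day 14 (-0.35 to 0.16, adjusted p = 0.619) and -0.05 at day 21 (-0.31 to 0.22, adjusted p = 0.874). With a common sum per sample the sign turned, to 0.63 at day 3 (adjusted p = 0.0630), which is 0.14 above the median of all genes under that scaling, against 0.14 below it (-0.14) on the deposited scale.

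The ratio of Il6ra to Il6st, also free of the scaling between samples, was 0.0199, 0.0172, 0.0187, 0.00262 and 0.0173 in uninjured muscle and 0.144, 0.0743, 0.159, 0.169 and 0.0991 at day 3. This was a 9.96-fold difference without overlap (exact permutation p = 0.00794, adjusted p = 0.0106). It was 5.61-fold at day 7, with 6 of 6 muscles above the uninjured ones (exact permutation p = 0.00216, adjusted p = 0.00866), and 2.36-fold at day 14, with 5 of 6 above (exact permutation p = 0.0281, adjusted p = 0.0322). At day 21 it was 2.03-fold (exact permutation p = 0.143, adjusted p = 0.143). The call at day 14 was lost when any 1 of 5 samples was left out. Without uninjured replicate 4 the difference in mean log2 ratio went from 1.24 to 0.68 (adjusted p = 0.0762), and without day 14 replicate 1, 2, 3 or 5 it lay between 1.16 and 1.20 (adjusted p = 0.0726 each).

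**Figure D3:**
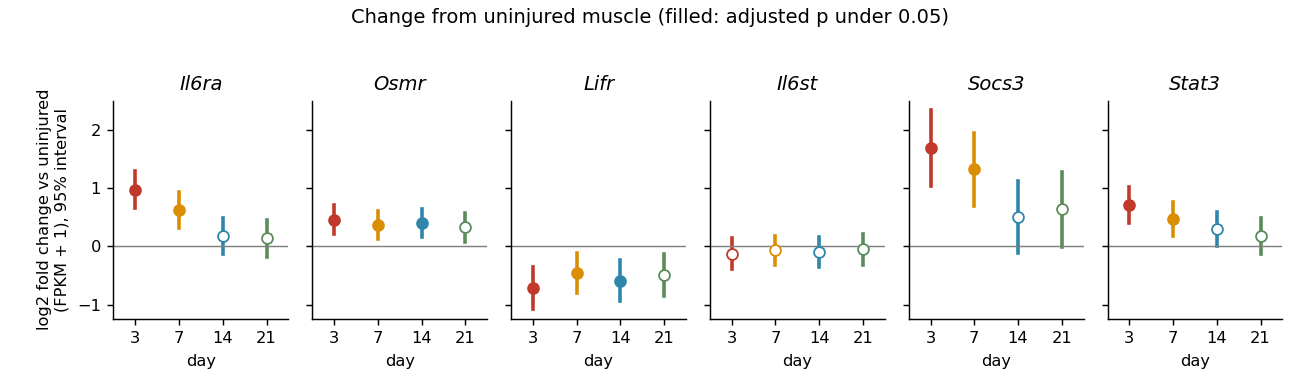
Log2 fold change against uninjured muscle on the FPKM + 1 scale for the 6 members in the limma fit, by day, with 95% intervals, filled where the adjusted p was under 0.05. Il6ra, Socs3 and Stat3 are highest at day 3, Osmr and Lifr lie on opposite sides of 0 at every time on the deposited scale (Lifr at day 7 turns to 0.08 under TPM), and all Il6st intervals contain 0.

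Socs3, the feedback inhibitor, had the largest log2 fold change at day 3 of the 6 fitted members on the FPKM + 1 scale, whereas with a pseudocount of 0.1 Il6ra (2.41) lay slightly above it (2.35). Uninjured muscles had 1.25, 0.703, 0.737, 1.55 and 0.851 FPKM. Day 3 muscles had 4.51, 6.45, 7.24, 6.41 and 3.30 FPKM. At day 7 the lowest, median and highest values were 2.14, 3.55 and 9.97 FPKM. All 11 muscles at these times were above all uninjured ones. The log2 fold change was 1.69 at day 3 (standard error 0.31, adjusted p = 0.000152) and 1.32 at day 7 (standard error 0.30, adjusted p = 0.00252).

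Socs3 varied between muscles at the late times, as it had at day 7. Its SD was 57.7% of the mean at day 14 and 56.8% at day 21, against 66.0% at day 7. At day 14, values ran from 0.904 to 3.72 FPKM with a median of 1.88, and at day 21 they were 3.05, 4.13, 1.30, 2.03 and 0.961 FPKM. At each of these times, 3 muscles were above the uninjured maximum of 1.55 FPKM. The log2 fold changes of 0.51 (95% interval -0.11 to 1.13, adjusted p = 0.232) and 0.64 (-0.01 to 1.28, adjusted p = 0.261) did not pass. Relative to day 3, Socs3 was lower by a log2 fold change of -1.18 at day 14 (adjusted p = 0.00737) and of -1.05 at day 21 (adjusted p = 0.0160), the latter not passing with -0.88 when day 21 replicate 5 was left out.

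Stat3, the transcription factor downstream of gp130, had 4.62, 4.06, 5.10, 4.13 and 4.47 FPKM in uninjured muscle and 6.96, 9.73, 8.53, 8.55 and 6.29 FPKM at day 3, without overlap. At day 7 it ranged from 4.07 to 9.41 FPKM with a median of 6.86, and replicates 3 and 6 (4.07 and 5.10 FPKM) were no higher than the highest uninjured muscle to 3 digits. The log2 fold change was 0.71 at day 3 (standard error 0.15, adjusted p = 0.000452) and 0.47 at day 7 (standard error 0.14, adjusted p = 0.0160). All 6 values at day 14, from 5.19 to 7.39 FPKM with a median of 5.50, were above the uninjured range, with a log2 fold change of 0.30 that did not pass (95% interval 0.01 to 0.59, adjusted p = 0.129). Day 21 muscles had 5.01, 5.04, 5.40, 5.66 and 4.80 FPKM (log2 fold change 0.18, 95% interval -0.13 to 0.48, adjusted p = 0.541). Stat3 was lower than at day 3 by -0.41 at day 14 (adjusted p = 0.0458) and by -0.53 at day 21 (adjusted p = 0.0103), and the former held in only 14 of 38 alternatives. It was lost when any 1 of 18 of the 27 samples was left out (-0.48 to -0.34 over all samples left out in turn). It was also lost under TPM (-0.72, adjusted p = 0.0853), with each sample's own total (-0.64, adjusted p = 0.0515), with no filter (adjusted p = 0.0741), with a pseudocount of 0.1 (adjusted p = 0.0514) and with the replicate number or letter as a block (adjusted p = 0.0951 and 0.0817). Stat5a, with which Stat3 shares an exon region, had a median of 1.77 FPKM in uninjured muscle and 2.41 at day 3.

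The order of the group means was the same for Il6ra and Stat3, with day 3 highest, followed by days 7, 14 and 21 and uninjured muscle. Socs3 differed from this by having day 21 (2.29 FPKM) above day 14 (2.02 FPKM). Osmr ran from day 3 over days 14, 7 and 21 to uninjured muscle, and Lifr in the inverse sense with uninjured muscle highest, then days 7, 21, 14 and 3. Il6st was highest in uninjured muscle and lowest at day 3 with differences under 1 FPKM. Among neighbours in these orders, only uninjured muscle and day 7 for Lifr differed past the adjusted threshold, and no other neighbouring pair of the 6 members did. Osm and Il6 were highest at day 3 and Lif at day 7, and their neighbours were not tested.

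Between successive times, none of the 6 members changed from day 3 to 7, from day 7 to 14 or from day 14 to 21, where 0.0478%, 0.335% and 0% of all genes tested did in either direction by limma, and voom on whole reads called none either. At an unadjusted p under 0.05, the numbers were 1 (Il6ra), 2 (Socs3 and Il6ra) and 0. The first of these shares stood for 7 genes, which became 1741 without day 7 replicate 5 and 729 without day 3 replicate 5. The second stood for 49, which became 154 without day 7 replicate 6 and 16 without day 14 replicate 3 or 4. From day 3 to day 14, Il6ra and Socs3 were lower, as was Stat3 with a call lost in most alternatives, and no member was higher, where 13.7% of genes were lower and 5.03% higher. From day 3 to day 21 the same 3 members were lower and none was higher, where 16.2% of genes were lower and 9.23% higher. These comparisons share the day 3 samples.

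Markers of infiltrating leukocytes were high at the times when Il6ra, Osmr, Socs3 and Stat3 were called higher early after injury. The summed FPKM of 8 macrophage markers (Adgre1, Cd68, Csf1r, Itgam, Cd14, Lyz2, C1qa and Mrc1) lay between 23.6 and 36.0 in uninjured muscle, between 452 and 2524 at day 3 and between 64.6 and 2440 at day 7. It was still between 59.6 and 142 at day 14 and between 47.6 and 80.8 at day 21. At day 3, all 8 of them passed as higher, against 7 at day 7, 3 at day 14 and none at day 21. Of all genes tested, 23.4%, 15%, 9.02% and 1.74% were higher at these times. The sum of 7 neutrophil markers (S100a8, S100a9, Csf3r, Cxcr2, Retnlg, Ly6g and Mmp9) ran from 0.630 to 4.69 in uninjured muscle, from 21.1 to 42.2 at day 3, from 2.26 to 102 at day 7 and from 2.12 to 13 at day 14, with 0.298 to 3.58 at the last time. Of these, 3 of the 4 that could be tested were higher at day 3 and 2 at day 7. Ly6g, a defining neutrophil marker, was at 0 in 26 of the 27 samples, all but day 3 replicate 1. The 8 muscle fibre markers fell in the opposite sense, from 87584 to 104311 in uninjured muscle to 22442 to 65911 at day 3. At that time 7 of 8 were lower, beside 19.8% of all genes tested. At day 21 their sum lay at 76201 to 110383, and none was lower. The part of these cells in the levels of the members was not tested.

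**Figure D4:**
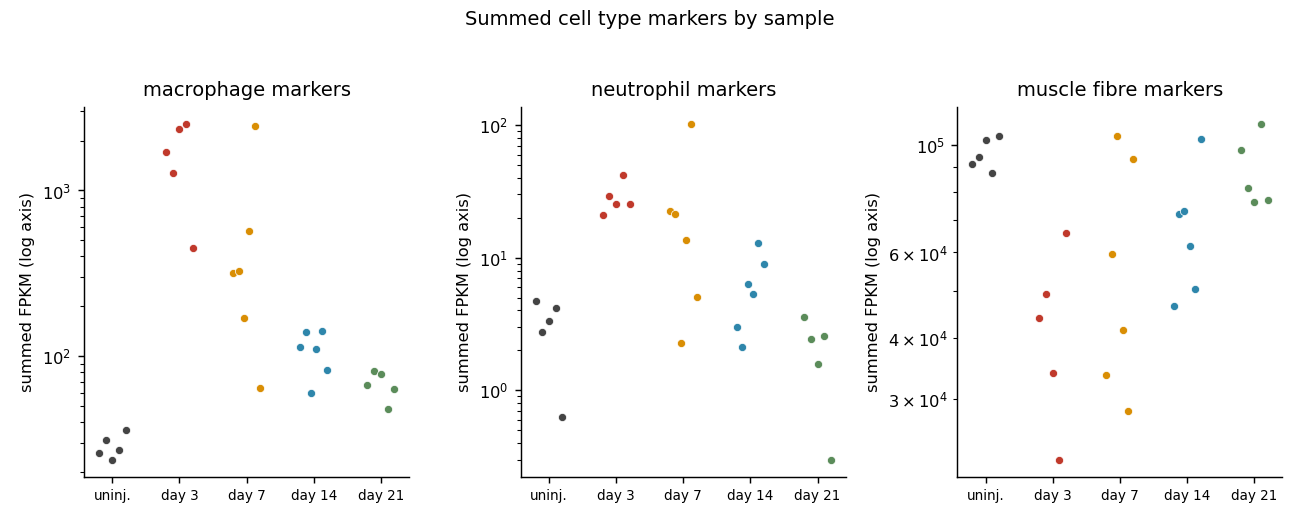
Summed FPKM of macrophage, neutrophil and muscle fibre markers in each sample, on log axes. Macrophage and neutrophil markers are high at day 3 and in day 7 replicate 5 (2440 and 102), and muscle fibre markers are lowest at day 3.

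Within day 7, the muscles with the highest and lowest macrophage sums differed in some of the members and not in others. Replicate 5, with the highest macrophage (2440) and neutrophil (102) sums and the lowest muscle fibre sum (28353), had the highest Osm (1.44 FPKM), Il6 (0.650), Il6ra (2.10) and Socs3 (9.97). Replicate 6, with the lowest macrophage sum (64.6), had no Osm or Il6 read and the lowest Il6ra (0.409). Lif (0.369 FPKM in replicate 6 and 0.363 in replicate 5) and Osmr (1.23 in both) were alike in these muscles. Il6 and Socs3 did not follow the macrophage sum through the other muscles. Il6 had no read in replicates 2 and 4 (sums 326 and 568) but 0.121 FPKM in replicate 3 (170). Socs3 in replicate 6 (3.11 FPKM) was above that in replicates 2 and 3 (2.14 and 2.19). Replicates 3 and 6, with muscle fibre sums of 104007 and 93450, had the highest Lifr and the lowest Stat3 of the group. With both day 3 replicate 5 and day 7 replicate 5 left out, an alternative added after the data had been seen, 5 members were still called at day 3 and 4 at day 7. The missing one was Lifr (-0.38, adjusted p = 0.107), and the log2 fold changes at day 7 were 0.47 for Il6ra and 1.09 for Socs3.

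Fibroblast markers were also higher, with 5 of 7 called at days 3 and 7, 4 at day 14 and 1 at day 21, and sums between 120.3 and 173 in uninjured muscle, between 377 and 720 at day 3 and between 153 and 232 at day 21. Myogenic markers, of satellite cells and new fibres, were called higher for 5 of 6 genes at day 3, 4 at days 7 and 14 and 3 at day 21. Of 6 endothelial markers, 2 were lower at days 3 and 7 and 1 at days 14 and 21. T cell markers, with Cd3d and Cd4 at 0 in uninjured muscle, summed to at most 3.75 FPKM and skin markers to at most 2.51 FPKM, and the 1 testable gene of each was not called. One of the 3 testable tendon markers was higher at days 3, 7 and 14. Beside these marker counts, 23.4% of all genes tested were higher and 19.8% lower at day 3, and 15% and 14.4% at day 7. The shares were 9.02% and 11.3% at day 14, and 1.74% and 1.69% at day 21.

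The genes most like each member over the 27 samples, by the root mean square difference of standardized log2 values, differed between members. Among the 3 genes closest to Il6ra were Plek and Fgr (0.244 and 0.245 SD units). Lifr was closest to Mbnl1, Homer1 and Msrb3 (0.322, 0.356 and 0.415). Stat3 was closest to Itpripl2, Slc25a24 and Tlr2 (0.423, 0.467 and 0.470), Osmr to Slc38a6, Zc3h7a and Glt8d1 (0.497, 0.526 and 0.529), and Socs3 to Gltp, Ccl7 and Kctd11 (0.50, 0.502 and 0.505). Il6st had no close neighbour, its nearest being 2900026A02Rik, Rrp12 and Psmd1 (0.735, 0.741 and 0.789). These distances describe samples that share the same groups and libraries.

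Of 48 further genes of the pathway, 40 passed the filter, and 19 of them were higher and 4 lower at day 3, 13 higher and 2 lower at day 7, 6 higher and 2 lower at day 14, and 3 higher and 1 lower at day 21, beside 23.4% higher and 19.8% lower of all genes tested at day 3, 15% and 14.4% at day 7, 9.02% and 11.3% at day 14, and 1.74% and 1.69% at day 21. Under TPM the pathway counts were 25 higher and 0 lower, 23 and 0, 8 and 0, and 2 and 0 at these times, and with own totals 25 and 1, 21 and 0, 11 and 0, and 2 and 0. Of all 15116 genes tested under TPM, 7087 were higher and 322 lower at day 3. At days 7, 14 and 21 they were 6457 and 208, 1646 and 106, and 40 and 5. With own totals, of 14887 genes, they were 6682 and 617, 5443 and 424, 2265 and 285, and 104 and 25. On the deposited scale the median log2 fold change of the pathway genes was 0.40, 0.34, 0.21 and 0.13 at these times, beside the medians of all genes given above.

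Among the other ligands and ligand partners, 2 of 6 tested were higher at day 3, beside 23.4% of all genes tested. Clcf1, a cytokine that acts through the CNTF receptor, rose from 0.503 ± 0.275 FPKM (SD, n = 5) in uninjured muscle to 2.11 ± 0.641 (n = 5) at day 3, and it was called at days 3, 7 and 14 (log2 fold changes 1.04, 0.82 and 0.87, adjusted p = 0.00233, 0.0163 and 0.0159) but not at day 21 (0.25, adjusted p = 0.642). Ebi3, a subunit of IL-27 and IL-35, rose from 0.0994 ± 0.136 to 1.60 ± 0.753 FPKM at day 3 (log2 fold change 1.20, adjusted p = 0.00229) and was not called later on the deposited scale, whereas at day 7 it passed under TPM (0.87, adjusted p = 0.0334) and with own totals (0.78, adjusted p = 0.0472). Ebi3 did not reach the 0.5 FPKM of the filter in any uninjured muscle (highest 0.260), so it was in the fit only through injured muscles. Il27, the partner of Ebi3 in IL-27, had a log2 fold change of 0.38 at day 3 (adjusted p = 0.213). Ctf1 and Ctf2, the cardiotrophins, had -0.36 and -0.24 (adjusted p = 0.154 and 0.227). Il11, Cntf and Il31 did not pass the filter, and Il31 was listed at 0 in every sample.

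On the deposited scale, the other receptors were called at day 7 or later. Cntfr, the receptor chain for CNTF, had log2 fold changes of 0.01 at day 3 (adjusted p = 0.993), 0.91 at day 7 (adjusted p = 0.0498) and 1.28 at day 14 (adjusted p = 0.0113), with 5.47 ± 3.75 FPKM in uninjured muscle and 13.3 ± 2.59 (n = 6) at day 14. Il11ra1, the IL-11 receptor, had -0.03 at day 3 (adjusted p = 0.913) and was called at day 21, with 12.8 ± 2.61 FPKM in uninjured muscle and 19.2 ± 1.96 (n = 5) at day 21 (log2 fold change 0.57, adjusted p = 0.0450). Under both other scalings it was called at days 3, 7 and 14 (0.74, 0.94 and 0.81 under TPM) and not at day 21 (0.74, adjusted p = 0.241 under TPM). The median of all genes tested under TPM was itself 0.50, 0.47, 0.28 and 0.11 at days 3, 7, 14 and 21. Il27ra and Il31ra did not pass the filter.

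The kinases that bind these receptors split at day 3 on the deposited scale, where the falls of Jak1 and Jak2 depend on the scaling. Jak1, the main kinase of gp130, fell by 0.45 on the log2 scale (15.6 ± 2.19 to 11.1 ± 0.935 FPKM, adjusted p = 0.00897), Jak2 fell by 0.81 (9.35 ± 1.82 to 4.84 ± 0.653 FPKM, adjusted p = 0.00270), and Tyk2 rose by 0.62 (1.65 ± 0.211 to 3.08 ± 0.572 FPKM, adjusted p = 0.00463). Under TPM, Jak1 turned to 0.32 (adjusted p = 0.264) and Jak2 was at -0.10 (adjusted p = 0.734), while Tyk2 was at 1.19 (adjusted p = 0.000698). With own totals they were at 0.17, -0.24 and 1.07, of which only Tyk2 passed. Relative to the median of all genes, Jak1, Jak2 and Tyk2 were at -0.18, -0.60 and 0.69 under TPM and at -0.46, -0.83 and 0.60 on the deposited scale. Tyk2 was also called at day 7 (0.50, adjusted p = 0.0220). No kinase was called at days 14 and 21 on the deposited scale, and Tyk2 was called at day 14 with own totals (0.69, adjusted p = 0.0340).

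Of the transcription factors, phosphatases, suppressors, sheddases and responding genes, those with the largest called log2 fold changes at day 3 on the FPKM + 1 scale, which understates low genes, were Timp1, Ptpn6, Serpina3n and Bcl3. Timp1, a metalloprotease inhibitor induced by the family, went from 2.85 ± 2.22 to 75.0 ± 23.7 FPKM (log2 fold change 4.46, adjusted p = 1.18e-07) and was still called at day 21 on the deposited scale (9.27 ± 2.06 FPKM, 1.61, adjusted p = 0.0411) but not under TPM (1.69, adjusted p = 0.164) or with own totals (1.70, adjusted p = 0.0834). Ptpn6, a phosphatase of blood cells, went from 0.447 ± 0.255 to 13.6 ± 6.45 FPKM (3.24, adjusted p = 3.56e-06), Serpina3n, an acute phase protease inhibitor in a cluster of similar genes between which reads may be split, from 0.577 ± 0.155 to 12.2 ± 6.35 FPKM (2.92, adjusted p = 2.87e-06), and Bcl3, a nuclear partner of NF-κB, from 1.19 ± 0.357 to 7.00 ± 1.47 FPKM (1.87, adjusted p = 1.58e-05). Cebpb, a transcription factor of the acute phase, was called at all 4 times, with 36.9 ± 7.77 FPKM in uninjured muscle and 69.7 ± 10.6 at day 21 (log2 fold change 0.91, adjusted p = 0.00360).

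A pair of genes among these were lower at day 3 on the deposited scale. Stat5b, a STAT factor of growth hormone signalling, went from 32.8 ± 4.17 to 13.1 ± 1.92 FPKM (log2 fold change -1.26, adjusted p = 2.97e-06), and Ptpn11, the phosphatase SHP2 that binds gp130 at the site used by Socs3, from 13.5 ± 1.04 to 7.80 ± 0.409 FPKM (-0.72, adjusted p = 0.000139). Ptpn11 remained called at day 21 (8.60 ± 1.66 FPKM, -0.60, adjusted p = 0.0130). Under TPM, Stat5b was at -0.48 at day 3 (adjusted p = 0.131) and Ptpn11 turned to 0.04 (adjusted p = 0.911), and with own totals they were at -0.63 (adjusted p = 0.0116) and -0.11 (adjusted p = 0.644). Relative to the median of all genes under TPM they were at -0.98 and -0.46. Ptpn11 at day 21 was not called under TPM (-0.41, adjusted p = 0.629) or with own totals (-0.42, adjusted p = 0.291). By role, 11 of 17 responding genes, 2 of 2 sheddases, 2 of 7 regulators and 1 of 3 STAT factors were higher at day 3, where 1 regulator and 1 STAT factor were lower, beside 23.4% of all genes tested higher and 19.8% lower. Some of the tested responding genes, like Ebi3, reached the 0.5 FPKM of the filter in no uninjured muscle and were in the fit only through injured muscles.

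**Figure D5:**
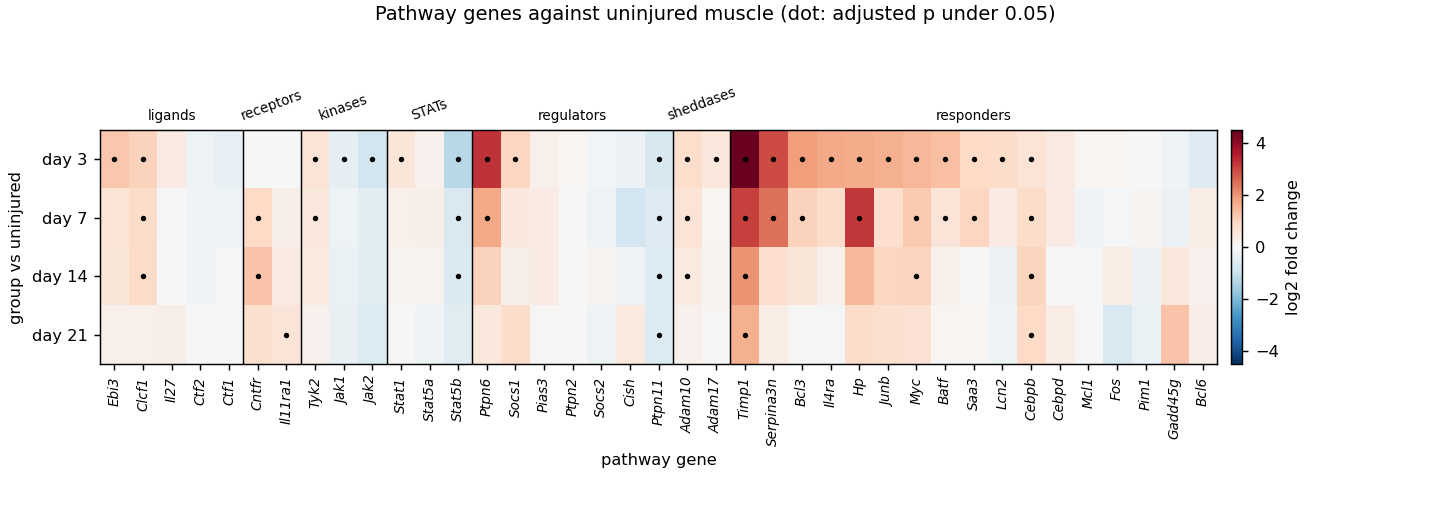
Log2 fold changes against uninjured muscle on the FPKM + 1 scale for tested pathway genes, ordered by role and by the change at day 3, with dots where the adjusted p was under 0.05. On the deposited scale the dots are most frequent in the day 3 row, and at day 21 they mark Il11ra1, Ptpn11, Timp1 and Cebpb, of which only Cebpb is also called under both other scalings.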

How the data were processed

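Messenger RNA was selected with poly-T beads, made into non-directional libraries and sequenced on a Novaseq instrument. The submitters' processing notes name HISAT2 2.0.5 and featureCounts 1.5.0-p3, and the genome build is not given in the sources used here. The authors deposited FPKM per gene, which were not counts, and recovered reads were used only for depth, for pooled ligand reads and for voom.

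FPKM was tested as log2(FPKM + 1) for the 14630 genes with at least 0.5 FPKM in at least 5 samples, with limma 3.58.1 in R 4.3.3, all 27 samples in 1 fit, a variance trend and Benjamini-Hochberg adjustment per comparison at 0.05. Ratios and the 3 low ligands were compared with exact two-sided permutation tests (scipy 1.17.1). The fit was tested on simulated data.

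The members, the pathway list and the marker lists were chosen with earlier results of these data known. Named pathway genes were all tested ligands, partners, receptors and kinases, of the rest the 4 largest called rises and up to 4 called falls at day 3, and all called at day 21. For likeness, the 3 nearest genes per member were named. Of these, 1 tested pathway gene, which is in the counts, and 1 near gene of Il6ra are not reported here. Groups and replicate numbers came from sample titles. Same-numbered samples were not more alike than others (correlation of deviations -0.52 to 0.57, median -0.0032, against a median of 0.0029 for different numbers). Sample columns also carry a letter whose meaning is not given, with a median correlation of 0.02 for the same letter. Such medians cannot show that no samples were paired.

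Alternatives were a pseudocount of 0.1, no filter, an FPKM minimum of 1, a common sum (TPM), each sample's own total of reads, no trend, only the 2 groups compared, replicate blocks, voom and each sample left out. Promoters were read from RefSeq on GRCm38.p6. Counting intervals cover counting error only.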

Additional observations from a re-analysis of the deposited data

Results flagged for a closer look

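Of 54 groups of values examined, 12 had a highest or lowest sample set far apart from the rest of its group by Dixon's criterion. For independent and normally distributed values, chance alone would give this in about 1 of 20 groups. That rate does not hold here, since the groups share samples and some hold mostly zeros. Osm had reads in a single muscle of the uninjured and day 21 groups, which fixed the flag in advance. Day 7 replicate 5 was the highest of its group for Il6 (0.650 FPKM), Osm (1.44 FPKM), Il6ra (2.10 FPKM) and the log2 ratio of Il6ra to Il6st (-2.30). Uninjured replicate 4 was the lowest of its group for Il6ra (0.0282 FPKM, from 3 reads) and for the log2 ratio of Il6ra to Il6st (-8.58). Uninjured replicate 3 was high for Il6 (0.140 FPKM), and uninjured replicate 5 was high for Osm (0.0301 FPKM, 1 read) and low for Osmr (0.536 FPKM). Day 21 replicate 2 was high for Osm (0.0661 FPKM, 2 reads), day 21 replicate 5 for Osmr (1.83 FPKM) and day 14 replicate 1 for Stat3 (7.39 FPKM).

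For 3 members, the change from uninjured muscle differed between times by limma. Against day 3, the effect at day 14 was different by -0.41 on the log2 scale for Stat3 (adjusted p = 0.0458, kept in 14 of 38 alternatives and lost, for example, at 0.0853 under TPM and at 0.0951 when replicate numbers were blocked), by -1.18 for Socs3 (adjusted p = 0.00737) and by -0.80 for Il6ra (adjusted p = 0.000732). The effect at day 21 was different from that at day 3 by -0.53 for Stat3 (adjusted p = 0.0103), by -1.05 for Socs3 (adjusted p = 0.0160) and by -0.84 for Il6ra (adjusted p = 0.000409). These comparisons share the day 3 samples and the uninjured samples cancel out of them.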

How the results depend on the processing

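The Osmr to Lifr ratio kept its direction and its call at all 4 times under every alternative run. So did the members called at day 3 apart from Lifr, wherever they were tested. Il6ra was not tested with an FPKM minimum of 1, which it did not pass, and so had 37 alternatives where Socs3 had 38. With a common sum (TPM) and each sample's own total of reads, respectively, the Il6st log2 fold change turned to 0.63 and 0.49 at day 3, 0.61 and 0.44 at day 7, 0.35 and 0.27 at day 14, 0.13 and 0.13 at day 21, and -0.50 and -0.36 for day 21 against day 3. Lifr turned to 0.077 at day 7 under TPM, and for day 21 against day 3 to -0.22 and -0.11. Members called at day 14 went from 2 to 1 under each of these scalings, pathway genes called at day 21 from 4 to 2 under each, and pathway genes at day 7 from 15 to 23 under TPM. All genes called went from 2969 to 1752 and 2550 at day 14, and from 502 to 45 and 129 at day 21. At day 7 they went from 4296 to 6665 under TPM. Pathway genes at day 21 were also 2 with no filter and with voom on whole reads, where all genes called were 247 and 282. With only the 2 groups compared in a fit, members called were 3 at day 7 and 1 at day 21, and pathway genes 15 at day 14 and 7 at day 21. In that setting all genes called went from 4296 to 2901 at day 7, from 2969 to 3748 at day 14 and from 502 to 1477 at day 21. Without day 3 replicate 5 and day 7 replicate 5, 13 pathway genes were called at day 14 and 1 member (Il6ra) between days 3 and 7. With a pseudocount of 0.1, the Lif difference at day 14 was -0.00974. Apart from the construction of each alternative, the cause was not tested.

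With single samples left out, members called ranged from 3 to 5 at day 7 (3 without uninjured replicate 5), from 1 to 2 at day 14 (1 without day 14 replicate 5) and from 0 to 1 between days 3 and 7 (1 without day 7 replicate 5). Pathway genes at day 21 ranged from 2 to 5, with 2 without uninjured replicate 2, 4 or 5 or day 21 replicate 1, 2 or 5. The Il6ra to Il6st log2 ratio difference at day 14 ranged from 0.68 to 1.46, the Il6st change at day 21 from -0.11 to 0.0060, the Lif differences at days 14 and 21 from -0.021 to 0.022 and from -0.011 to 0.081, and the Osm difference at day 21 from -0.0085 to 0.018.

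Same-numbered samples were not more alike than others, which cannot show that no samples were paired. With the replicate number as a block, 5, 5, 2 and 0 members were called at days 3, 7, 14 and 21, as without it. With the replicate letter as a block, 1 member (Lifr, limma adjusted p = 0.0368) was called at day 21. All genes called at day 21 then went from 502 to 1233. Ligands with 0 to 114 reads per sample are limited by depth.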
